A study of Homo sapiens with 8 samples.

Results

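The 58 genes described here encode ubiquitin ligases, parts of their complexes, the conjugating enzymes that serve them, and deubiquitinases. They were chosen by name as a group of related function, with earlier results of these data known. Each was taken with all its splicing entries in the deposited tables. All 58 of 58 were found in both tables, of 11412 gene names in either. They comprise 6 F-box proteins and SCF partners, 8 cullins and cullin adaptors, 11 RING ligases, 11 HECT ligases, 3 UBR N-recognins, 4 conjugating (E2) enzymes and variants, and 15 deubiquitinases.

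The cells were JSL1, a monoclonal line derived from Jurkat, itself a human T lymphocyte line, and polyadenylated RNA was sequenced. There were 8 libraries in 4 groups of 2. Control cells and cells depleted of CELF2 by stably integrated, doxycycline-inducible short hairpin RNAs were each studied without stimulation and after treatment with PMA (phorbol myristate acetate, an activator of protein kinase C) for 48 hours at 20 ng/mL. All groups share the 1 clonal line, and the sources used here do not say if a hairpin or doxycycline was also given to control cells, so neither can be told apart from the depletion. They also do not say whether the 2 libraries of each group are from separate cultures, so the authors' probabilities may cover technical spread alone. Of 12 T cell markers, 10 had splicing entries, CD3D, CD3E, CD247, LCK and ZAP70 among them, and CD2 and CD28 had none. Of 10 markers of other lineages, CD79A and NCAM1 had entries. The tables hold no expression values, so neither the depletion of CELF2 nor the level of any member could be read from them.

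Ubiquitin is passed from an activating enzyme (E1) to a conjugating enzyme (E2) and then, with the help of a ligase (E3), to a substrate. RING ligases bring the loaded E2 to the substrate, HECT ligases first take the ubiquitin onto themselves, and cullin-RING ligases are assembled on a cullin scaffold with exchangeable substrate receptors such as F-box proteins. Deubiquitinases remove the modification, and in T cells ligases such as CBLB and ITCH are known for restraining activation. CELF2 belongs to a family of RNA-binding proteins that bind UGU-rich sequence and can promote either inclusion or skipping of an exon.

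The values are those of local splicing variations (LSVs). An LSV is a set of junctions that all leave 1 exon (a source LSV) or all enter 1 exon (a target LSV), and a junction's value is its expected share of the LSV, in percent. Shares run from 2.5% to 97.5% in the tables. The 2 libraries of each group were merged into a single estimate by the authors, so no value below has an SD or a number of replicates behind it, and read depth is unknown. Their measure of error is the posterior probability that depletion changed a share by at least 20 percentage points, and an LSV is said to be called where that probability is at least 0.95. Rose and fell are used only of called LSVs. The effect of PMA is the difference between the 2 tables and has no such probability, so it is given as a value with no test.

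Exons whose sequence could be matched to the annotation are shown first, because 5 coding exons of members recur in the results. They lie in FAM188A, the member with the largest difference, and in MDM4, USP8, USP15 and CBLB, which were named by their values. The letters are from GENCODE 29 transcripts on GRCh38, read in the direction of transcription, and capitals mark each TGT, the DNA form of UGU.
FAM188A 52-base exon: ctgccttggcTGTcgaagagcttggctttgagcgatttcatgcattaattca
MDM4 68-base exon: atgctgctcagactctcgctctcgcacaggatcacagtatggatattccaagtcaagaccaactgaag
USP8 87-base exon: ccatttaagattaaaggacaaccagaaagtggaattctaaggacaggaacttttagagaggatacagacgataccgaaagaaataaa
USP15 87-base exon: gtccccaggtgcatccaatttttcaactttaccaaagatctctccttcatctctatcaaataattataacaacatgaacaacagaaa
CBLB 132-base exon: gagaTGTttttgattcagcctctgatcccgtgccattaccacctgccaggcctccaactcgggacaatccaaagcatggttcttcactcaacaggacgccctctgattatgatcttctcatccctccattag
The FAM188A exon holds 1 TGT, as does the CBLB exon, and 39.0% and 84.6% of annotated coding exons of their lengths hold any. The exons of MDM4, USP8 and USP15 hold none, where 65.6% of 68-base and 68.9% of 87-base coding exons do. Only the transcribed strand and the exon itself were searched, not the introns beside it. The exons of FAM188A and MDM4 have lengths that are not multiples of 3, and the other 3 keep the reading frame.

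CELF2 depletion called 5 members without PMA (8.62%) and 5 with PMA (8.62%). Over all genes 6.21% of 10947 were called without PMA and 10.6% of 11021 with PMA. Members had more LSVs than most genes, with a median of 12 (range 4 to 41) against 7, and a gene with more LSVs has more chances of a call. At the members' numbers of LSVs, all genes would give 9.01% without and 15.9% with PMA. The members' share was thus near the background without PMA and below it with PMA. In all 9 members had a called LSV in either state, 49 had none, and FBXW7 was called in both. A call in both states was made for 2.73% of the 10556 genes listed in both tables. By LSV, 7 of 841 were called without and 7 of 837 with PMA, beside 0.985% and 1.87% of all LSVs, and 1 was called in both, beside 0.31% of the LSVs listed in both tables.

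**Figure D1:**
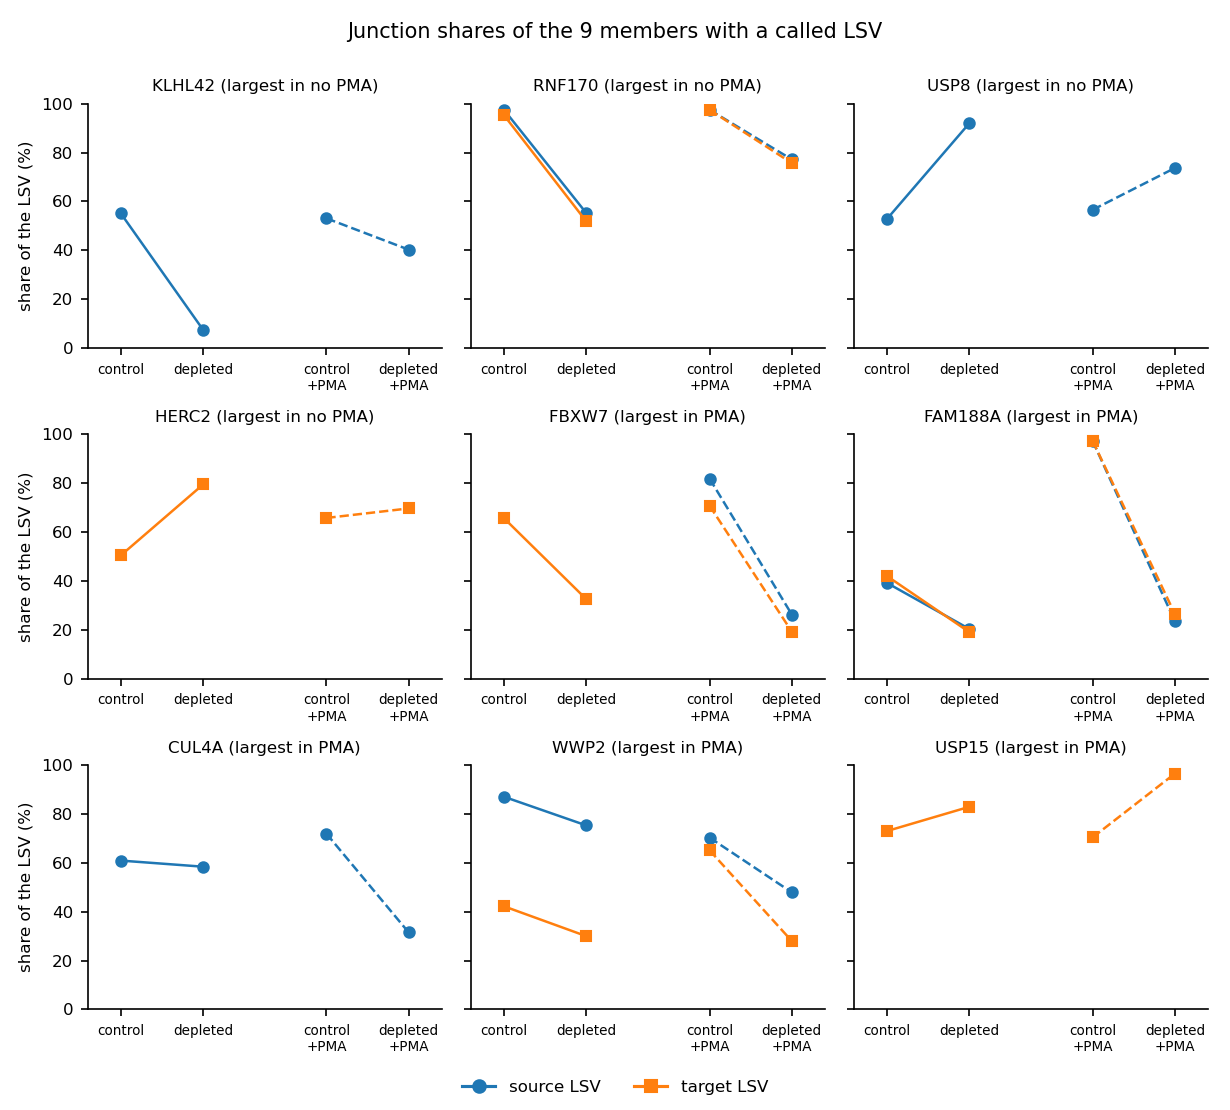
Shares (percent of the LSV, vertical axis) of the junction with the largest depletion difference in each of the 9 members with a called LSV, in the 4 groups (horizontal axis). Each point is the authors' value over both libraries of a group, circles are source and squares target LSVs, solid lines join groups without and dashed lines groups with PMA. The FAM188A skipping junction stands at 97.3% in PMA-treated control cells and at 23.5% to 26.5% in PMA-treated depleted cells.

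Among the deubiquitinases, FAM188A (now named MINDY3, a deubiquitinase of the MINDY family) held the largest depletion difference of any member. Its 52-base exon, exon 5 of an annotated transcript, lies at chr10:15880227-15880278 of hg19, the build of the files, and at chr10:15838228-15838279 of GRCh38, on the minus strand, and is coding. In the source LSV the including junction had a share of 60.8% in control and 79.6% in depleted cells without PMA, and of 2.7% in control and 76.5% in depleted cells with PMA. The target LSV gave 56.3%, 79.7%, 2.6% and 70.1% in the same order. PMA-treated control cells were thus alone in skipping the exon nearly always, and in the other 3 groups the including junction held most of the share. With PMA both LSVs were called and inclusion rose, at a posterior probability that rounds to 1. Without PMA the difference had the same sign, with probabilities of 0.57 and 0.85, and was not called.

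USP8, a deubiquitinase of endosomal sorting, was called without PMA in its 5′ region. From the exon at chr15:50716793-50716851 (hg19), the junction to the exon at chr15:50731206 rose from 52.9% to 92.0%, and the junction to a 162-base exon, annotated in the 5′ untranslated region of other transcripts, fell from 46.5% to 7.6%. With PMA the skipping junction stood at 56.6% in control and 73.7% in depleted cells, the same direction at a probability of 0.21. The 162-base exon also has a target LSV, which saw a smaller difference, 25.5% in control and 15.5% in depleted cells without PMA, and was not called. The source and target LSVs of this exon thus differ in size and not in direction.

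The 87-base coding exon of USP8 shown above, at chr15:50776472-50776558 of hg19, went with PMA in both kinds of cells. Its inclusion in the target LSV was 31.2% without and 11.0% with PMA in control cells, and 24.6% and 7.4% in depleted cells. Its source LSV gave 28% and 14.6%, and 18.3% and 8.3%. Every value with PMA lies below both values without it. Depletion called neither LSV.

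USP15, a deubiquitinase with a regulatory role in several signalling pathways, was called with PMA at the entry to the exon at chr12:62708571-62708854 (hg19). The junction from chr12:62696701 rose from 70.4% to 96.5% and the junction from chr12:62699839 fell from 29.2% to 3.4%. Without PMA they stood at 73.0% and 82.9%, and at 26.8% and 17.0%, in control and depleted cells. Further along, the 87-base coding exon at chr12:62743002-62743088 was included at 34.9% in control and 55.6% in depleted cells without PMA, and at 37.6% and 47.4% with PMA, in its source LSV. The target LSV gave 52.5%, 68.3%, 54.6% and 65.3%. Depleted cells were the higher of the pair in all 4 comparisons, and none was called, with probabilities of 0.55 at most. The source LSV holds 5 junctions, so its shares are not of inclusion against skipping alone. Its junction to chr12:62728947 had 26.6% in control and 15.9% in depleted cells without PMA. Inclusion of the 87-base exon is known to distinguish 2 USP15 isoforms.

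Of the other deubiquitinases, 2 were named by their values. OTUD5, which cleaves ubiquitin chains in innate immune signalling, held a retained intron whose share was 38.3% without and 61.9% with PMA in depleted cells, and 48.6% and 49.6% in control cells. In USP33, which acts in receptor recycling, the junction between chr1:78167156 and chr1:78177432 (hg19) had 87.9% without and 68.1% with PMA in control cells. In depleted cells it had 86.5% and 83.2%. Another USP33 junction, leaving the exon at chr1:78163548, stood at 69.5% in PMA-treated control and 86.8% in PMA-treated depleted cells. Without PMA that junction stood at 82% and 87.5%. Neither was called. Over all 15 deubiquitinases the median of the largest difference per gene was 10.3 points for depletion without PMA, 12.3 with PMA, 10.5 for PMA in control cells and 11.3 for PMA in depleted cells.

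FBXW7, the F-box substrate receptor of an SCF ligase for cyclin E, MYC and Notch, was the member called in both states. A 93-base intron at chr4:153456186-153456278 of hg19, which precedes an exon annotated in the 5′ untranslated region of FBXW7, was retained more in depleted cells. In the target LSV its share rose from 34.3% to 67.4% without PMA and from 29.2% to 80.7% with PMA, at probabilities of 0.98 and 1. A source LSV that was listed with PMA alone gave the spliced junction 81.9% in control and 26.3% in depleted cells. Both depleted groups lie above both control groups, by 33.1 points at the nearest. Both LSVs hold a de novo junction, that is one outside the annotation the authors used.

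From the same 5′ exon of FBXW7, the junction that skips to chr4:153333024 had 32.0% in control and 63.4% in depleted cells without PMA, and 19.7% and 44.9% with PMA. The junction to a 50-base exon of the 5′ untranslated region at chr4:153333632-153333681 had 59.5% and 27.9%, then 57.6% and 34.6%. A target LSV of the skipping junction gave 33.9% and 47.1%, and 18.5% and 38.2%. The differences had the same sign in both states, and the probabilities, 0.749 to 0.948 in the source LSV and lower in the target LSV, stopped short of a call. These are 5′ exons, where FBXW7 transcripts with different first exons are known to encode isoforms that differ in their amino-terminal end.

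The remaining F-box members were not called. FBXW11, a substrate receptor for phosphorylated IκB and β-catenin, had a junction entering chr5:171341409 from chr5:171433462 (hg19) at 38.8% in control and 58.6% in depleted cells without PMA, and at 61.8% and 54.2% with PMA, in the target LSV. Its source LSV gave 29.8% and 33.4%, and 44.7% and 29.1%, so the depletion difference without PMA was 19.8 points in the first and 3.6 in the second. FBXO7, which also acts in mitophagy, had a source LSV in which the junction to chr22:32874968 was at 31.8% without and 65.7% with PMA in control cells, and at 33.2% and 48.3% in depleted cells. The target LSV gave 6.6% and 18.0%, and 16.2% and 23.6%, differences of the same sign. The largest FBXO7 depletion difference without PMA was at another junction of that target LSV, from chr22:32871111 to chr22:32874968. It had 65.7% in control and 43.6% in depleted cells without PMA, at a probability of 0.83. With PMA it had 63.1% and 48.9%, at 0.22. SKP2, the receptor for the cell cycle inhibitor p27, had a junction to chr5:36181920 with 45.8% in control and 62.4% in depleted cells without PMA, but 35.1% and 24.1% with PMA. The SKP2 difference between control and depleted cells therefore had opposite signs in the 2 states, and the largest PMA difference in depleted cells of any member, 38.3 points, was at this junction.

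In the cullin group, KLHL42 (a substrate adaptor for CUL3) had the largest depletion difference without PMA. A 103-base exon at chr12:27950180-27950282 (hg19), partly coding in an annotated nonsense-mediated decay transcript, fell from 55.1% to 7.5% in the source LSV and from 47.0% to 6.2% in the target LSV. With PMA the same LSVs gave 53.1% and 40.3%, and 63.9% and 43.7%, and were not called. The exon was nearly absent in 1 of the 4 groups, depleted cells without PMA. Its inclusion in depleted cells was 37.5 points higher with PMA than without in the target LSV, beside 16.9 points in control cells. The source LSV gave 32.8 points in depleted and -2.0 points in control cells, so the sign in control cells depends on the LSV.

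CUL4A, a cullin scaffold that works with DDB1, was called with PMA. From the exon at chr13:113883760-113883833 (hg19), the junction to chr13:113887491 fell from 71.9% to 31.5% and the junction to chr13:113883956 rose from 22.1% to 59.9%. Without PMA the 2 junctions were near equal between control and depleted cells, at 60.9% and 58.4% and at 35.8% and 33.4%. At the junction to chr13:113883956, the difference with PMA minus without was -13.7 points in control cells and 26.5 points in depleted cells. The target LSV of that junction gave smaller differences of the same signs, -10.5 and 12.4 points, and was not called. The called LSV holds a retained intron and a de novo junction. No other cullin group member reached 20 points in any contrast, and the group's medians, 4.1, 6.45, 6.3 and 3.5 points in the order given for deubiquitinases, were below those of every other class, except that UBR N-recognins were lower for depletion with PMA, at 4.5 points.

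RNF170, a RING ligase of the endoplasmic reticulum that acts on inositol trisphosphate receptors, was called without PMA in 2 LSVs that see the same choice. The exon ends at 2 donor sites 230 bases apart. The junction from the usual donor fell from 95.3% to 51.9% in the target LSV and from 97.5% to 55.3% in the source LSV, and the junction from the other donor rose from 2.5%, the lowest share listed, to 41.5% and 44.5%. With PMA the usual donor had 97.5% in control cells and 75.7% and 77.2% in depleted cells, with probabilities of 0.88 and 0.78. Control cells used 1 donor almost throughout in both states, and depleted cells used both.

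Of the other RING ligases, 4 were named by their values and none was called. MDM4, an inhibitor of p53, has a 68-base coding exon, annotated as exon 6, at chr1:204506558-204506625 of hg19, whose skipping is known to give a short protein. In the target LSV its inclusion was 38.0% in control and 13.0% in depleted cells without PMA, and 53.6% and 37.1% with PMA, at probabilities of 0.88 and 0.16. The source LSV of the same exon gave 24.4% and 19.6%, and 39.1% and 31.1%. Depleted cells were lower in all 4 pairs and PMA-treated cells higher in all 4. At the including junction, the source LSV put the depletion difference without PMA at -4.8 points where the target LSV put it at -25.0. The source LSV holds 6 junctions. Its junction that skips the exon had 68.1% in control and 78.8% in depleted cells without PMA, and 49.8% and 59.8% with PMA.

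CBLB, a RING ligase that limits T cell receptor signalling, had 2 regions of difference. At its 5′ side, 2 junctions entering the exon at chr3:105586254-105586435 (hg19) start 176 bases apart, and that from chr3:105587580 had 52% in control and 82% in depleted cells without PMA, and 74.6% and 88.0% with PMA, at probabilities of 0.88 and 0.089. The 132-base coding exon at chr3:105400323-105400454 was included at 68.4% without and 92.2% with PMA in control cells and at 66.2% and 83.7% in depleted cells, in the source LSV. The target LSV gave 75% and 95.2%, and 79.7% and 87%. Inclusion was higher with PMA in all 4 pairs, by 7.3 to 23.8 points.

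RNF14, a RING-between-RING ligase, had a junction from chr5:141337990 to chr5:141350269 (hg19) at 2.5% without PMA in both kinds of cells, and at 31.4% in control and 21.4% in depleted cells with PMA. Both values with PMA lie well above those without. In RNF216, which takes part in receptor turnover, the junction between chr7:5778983 and chr7:5780604 had 59.4% without and 40.1% with PMA in control cells, and 67.3% and 51.6% in depleted cells.

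Among the HECT ligases 2 were called. HERC2, a large ligase of DNA repair, was called without PMA in a target LSV with a de novo junction, in which the junction from chr15:28502207 fell from 49.5% to 20.5% and a junction from chr15:28517361 rose from 50.5% to 79.5%. With PMA the first had 34.2% and 30.3%. HERC2 has near-identical partial copies in the genome, so reads may have been split between copies and the value is uncertain. WWP2, a ligase of the NEDD4 family, was called with PMA, where the junction from chr16:69810144 to chr16:69820899 (hg19) fell from 65.1% to 28%. Without PMA it had 42.2% and 30%. The source LSV of the same junction gave 87% and 75.3% without PMA, and 70.3% and 47.9% with PMA, and was not called. Depleted cells were lower in all 4 pairs. The difference with PMA minus without was 22.9 points in control and -2.0 points in depleted cells in the target LSV, but -16.7 and -27.4 points in the source LSV, so its sign in control cells depends on the LSV.

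UBE3A, the ligase mutated in Angelman syndrome, had the largest PMA difference of any HECT ligase. Its junction from chr15:25653767 to chr15:25652409 (hg19) had 67.4% in control and 41.8% in depleted cells without PMA, and 80.1% and 79.2% with PMA, in the target LSV. The source LSV, which sets the same junction against other choices, gave 79.4% and 86.4% without PMA, and 60.5% and 79.9% with PMA. The depletion difference without PMA and the PMA differences in both kinds of cells thus had opposite signs in the 2 LSVs. In HERC1, a very large ligase with RCC1-like repeats, a junction pair with ends 24 bases apart gave the minor junction 14.9% in control and 40.4% in depleted cells without PMA, and 24.7% and 26.5% with PMA. None of these LSVs was called.

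In UBE3B the junction from chr12:109945540 to chr12:109947401 (hg19) had 84.4% and 91.3% without PMA and 67.9% and 89.3% with PMA, in control and depleted cells. UBE3C, which lengthens ubiquitin chains at the proteasome, had a junction between chr7:157024021 and chr7:157041062 at 91.7% without and 70.9% with PMA in depleted cells, and at 84.2% and 69.2% in control cells. The 3 UBR N-recognins, which read amino-terminal degradation signals, and the 4 E2 enzymes and variants were not called in either state. Their largest differences over the 4 contrasts were at most 16.6 and 17.7 points.

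**Figure D2:**
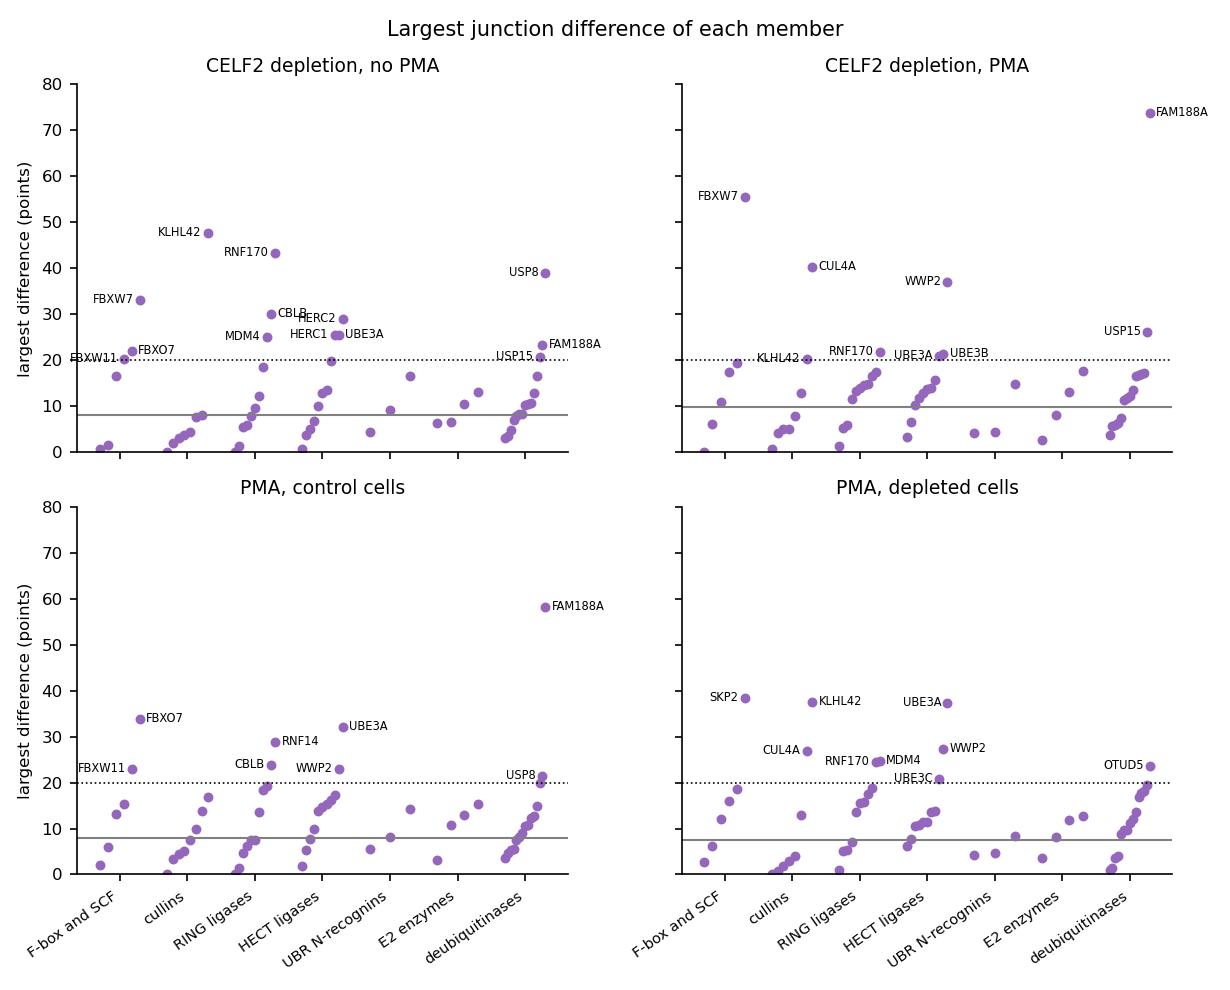
Largest absolute difference of a junction share per gene (percentage points, vertical axis) for each of the 58 members, by role, in the 4 contrasts. Each point is 1 gene, the grey line is the median over all genes, the dotted line is 20 points, and members at 20 points or more are named. FAM188A stands highest at 73.8 points with PMA, and UBR N-recognins and E2 enzymes stay under 20 points in every panel.

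Per gene, the largest absolute difference of a junction share had a median of 9.45 points for depletion without PMA, beside 8.1 over all genes, and of 12.85 with PMA, beside 9.8. For PMA it was 10.6 in control cells, beside 8.0, and 11.4 in depleted cells, beside 7.6. Because a maximum over more junctions is larger, each member was also placed among all genes with a like number of LSVs, in 8 classes. Members exceeded their class median in 21, 21, 27 and 30 of 58 cases for the 4 contrasts, and their median percentiles were 31.2, 39.0, 42.0 and 56.0. The members' medians above those of all genes were thus not seen against genes of like LSV number, except for PMA in depleted cells. They exceeded the 90th percentile of their class in 9, 4, 4 and 8 cases. By definition 90% of the genes of a class lie at or below it, so some such cases are found in any 58 genes. These counts were not tested.

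**Figure D3:**
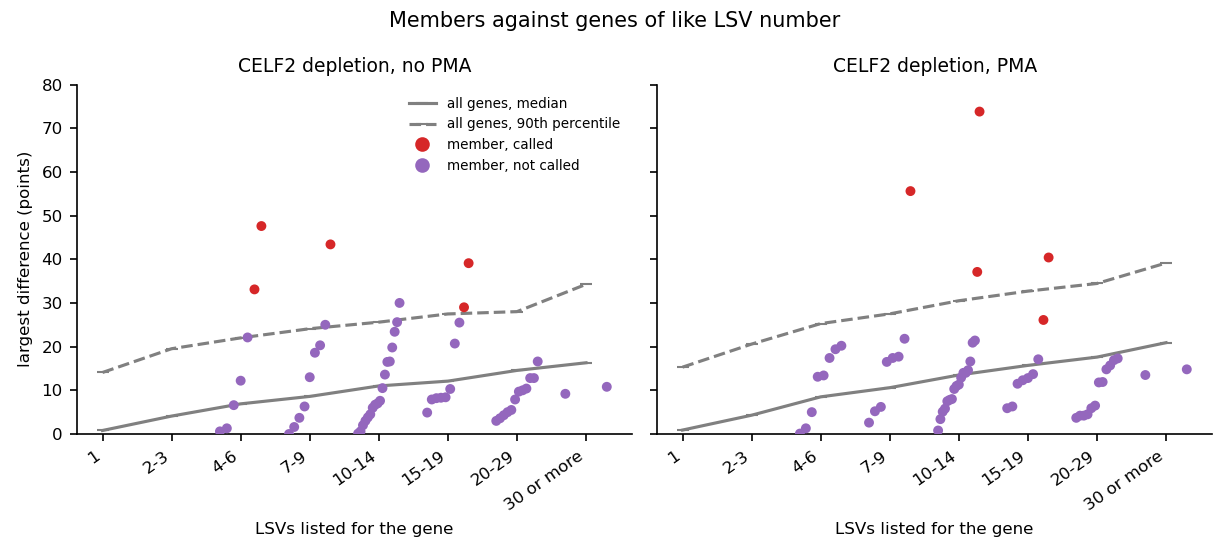
Largest depletion difference per gene (percentage points, vertical axis) against the number of LSVs listed for the gene (8 classes, horizontal axis), without PMA on the left and with PMA on the right. Points are the 58 members, red where called, and grey lines are the median (solid) and 90th percentile (dashed) over all genes of the class. Without PMA the members' median lay above that of all genes in the classes of 4 to 6 LSVs (12.2 against 6.9 points) and 7 to 9 LSVs (13.0 against 8.6) and below it in the classes with more, such as 7.3 against 11.0 points at 10 to 14 LSVs.

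Members past 20 points for PMA numbered 8 in control cells (FAM188A, FBXO7, UBE3A, RNF14, CBLB, FBXW11, WWP2 and USP8) and 9 in depleted cells (SKP2, KLHL42, UBE3A, WWP2, CUL4A, MDM4, RNF170, OTUD5 and UBE3C). Over all genes 14.8% of 10500 passed in control and 11.4% in depleted cells, and at the members' LSV numbers 20.2% and 16.2% would. The members' shares were 13.8% and 15.5%. No member had 1 junction past 20 points the same way in both kinds of cells, a pattern seen in 2.37% of all genes. Near to it were the USP8 junction that skips the 87-base exon, 21.4 points higher with PMA in control and 19.4 in depleted cells, a WWP2 junction at 19.4 and 24.4 points, and the RNF14 junction at 28.9 and 18.9 points.

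The 4 groups share no library across states or kinds of cells, so each member's largest junction could be looked up in the other pair of groups. Of 13 members at 20 points or more for depletion without PMA, 12 had the same sign with PMA, and the median size was 25.6 points without and 13.4 with PMA. Of 8 listed in both tables among 9 members at 20 points or more for depletion with PMA, 8 had the same sign without it. For PMA, 6 of 8 chosen in control cells had the same sign in depleted cells, and 7 of 9 chosen in depleted cells had it in control cells. The share of equal sign over all genes at 20 points or more was not computed, so these counts have no like background. A value chosen as the largest tends to be smaller wherever it is looked up again. Over all members the shares of equal sign were 70.2% and 61.8% for depletion, beside 64.9% and 63.5% over all genes, and 62.1% for PMA in either kind of cells, beside 58% and 57.5%. In these shares a junction with no difference in either pair, such as that of RNF130, counted as equal sign, for members and all genes alike.

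**Figure D4:**
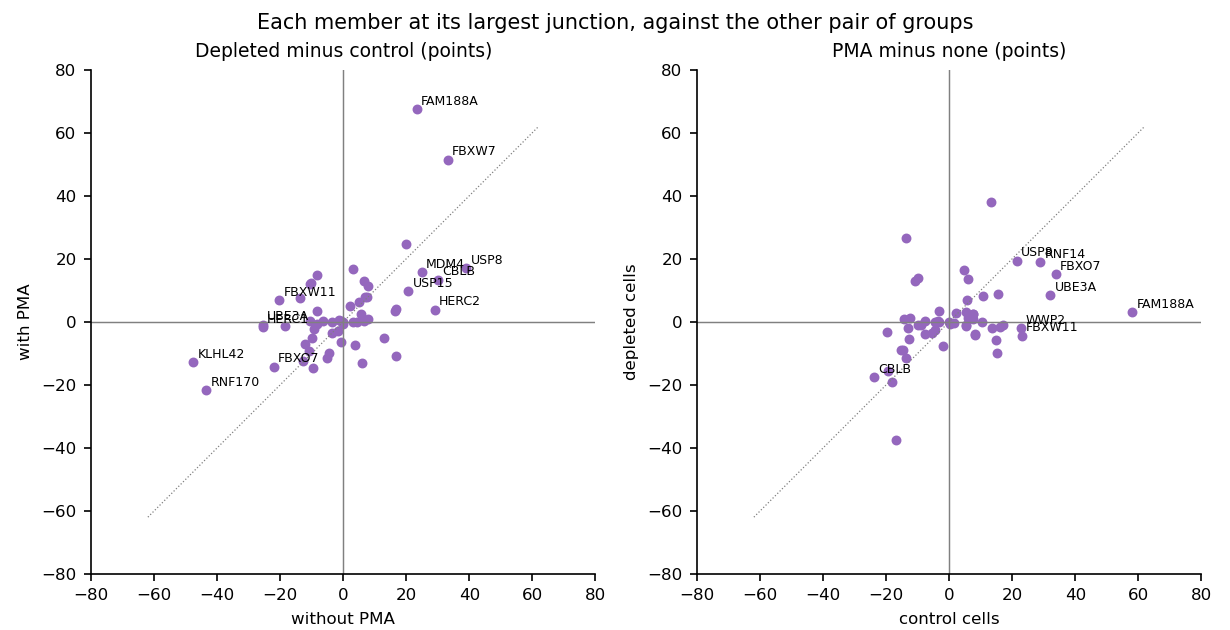
Signed difference at each member's largest junction (percentage points), with the pair of groups in which the junction was chosen on the horizontal and the other pair on the vertical axis, for depletion (left) and PMA (right). Each point is 1 member, the dotted line marks equal values, and members at 20 points or more on the horizontal axis are named. Of the 13 members named for depletion, 11 differ by less with PMA. FAM188A (23.4 without and 67.5 points with PMA) and FBXW7 (33.1 and 51.5) differ by more. The FAM188A skipping junction differs by 58.1 points on PMA in control and 3.1 points in depleted cells.

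The 36 members not named by their values differed by at most 16.6 points for depletion without PMA, 17.7 with PMA, 15.3 for PMA in control and 18.2 in depleted cells, with medians of 6.15 to 7.65. They include CUL1, CUL2, CUL3, CUL5, CBL, MDM2, ITCH, CYLD, BAP1, USP7 and USP9X. Of all 58 members, 15 for depletion without PMA and 9 with PMA stayed under 5 points in their largest junction, beside 35.5% and 30.7% of all genes. Members have more LSVs than most genes, and a maximum over more junctions is larger. The share under 5 points at the members' LSV numbers was not computed, so these counts have no like background.

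In make-up, 15.2% of the members' LSVs without PMA held a retained intron, beside 29.7% of all LSVs, and 79.3% held exon skipping, beside 71.7%. A junction outside the annotation was in 62.4%, beside 66.9%. The leading junction was under 90% in control cells in 18.7% of the members' LSVs, beside 24.0% of all. With PMA these shares were within 2 points of those without. Of the 13 called LSVs, counting 1 called in both states once, 3 held a retained intron and 4 a de novo junction.

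Exon skipping could be placed in the annotation where all 3 junctions of an exon were read. There were 403 such exon candidates in the 58 members, 80 of which had a range of 10 points or more over the 4 groups and 26 a range of 20 or more. Of the 23 of these 26 that matched GENCODE 29 by the lengths of exon and flanking introns, 8 were coding, 6 partly coding, 8 in the 5′ untranslated region and 1 in a transcript with no coding sequence. Of all 274 that matched, 192 were coding and 22 in the 5′ untranslated region. For 74 simple exons seen by both a source and a target LSV, the 2 shares differed by at most 23.1 points. Most of these exons sit near the limits of the scale, where both shares must be alike. The 5 to 8 exons per group with a share between 10% and 90% differed by medians of 3.4 to 5.0 points. The coding exons shown differed by up to 17.9 points in USP15, 14.5 in MDM4 and 13.5 in CBLB. The source LSVs of USP15 and MDM4 hold 5 and 6 junctions, so their shares are not of inclusion against skipping alone.

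**Figure D5:**
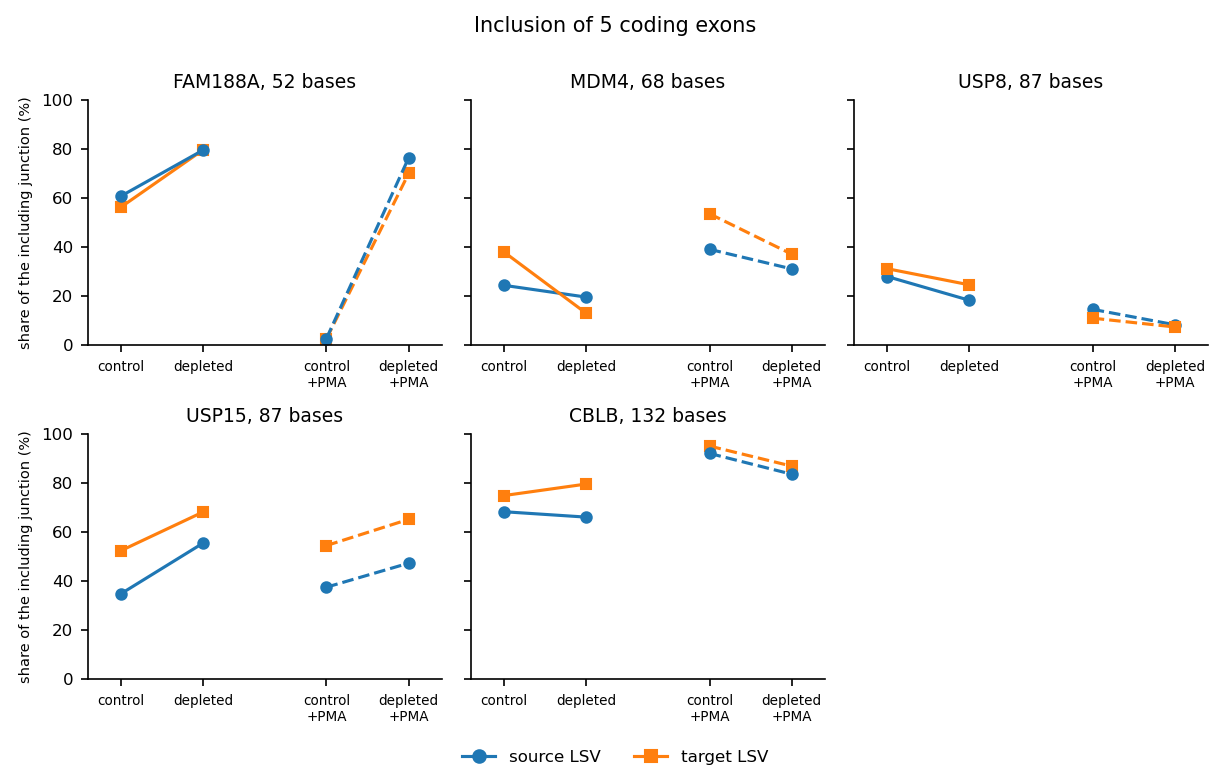
Share of the including junction (percent, vertical axis) of the 5 coding exons whose sequence is shown, in the 4 groups. Each point is the authors' value over both libraries, with circles for source and squares for target LSVs. FAM188A drops to under 3% in PMA-treated control cells alone, and the MDM4 source and target LSVs stand 6.0 to 14.5 points apart over the 4 groups.

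Of 202 other genes of the pathway on a list of E1, E2, ligase and deubiquitinase genes, 192 had LSVs in each table. Depletion called 8 (4.17%) without PMA and 10 (5.21%) with PMA, beside 6.21% and 10.6% of all genes. The 30 other E2 enzymes had no call in either state, beside 3 and 4 calls among 63 other RING and HECT ligases, 4 and 3 among 43 other cullin-RING parts, and 0 and 3 among 48 other deubiquitinases. Of the 192, MIB2 and RNF146 were called in both states, as were 2.73% of all genes listed in both tables. Each was called at different junctions in the 2 states. In MIB2, a ligase of Notch signalling, the junction called without PMA rose from 25.0% to 57.7% and stood at 65.9% and 40.9% with PMA, and the junction called with PMA rose from 41.6% to 72.8% and stood at 33.0% and 41.6% without PMA. In RNF146, which recognises ADP-ribosylated proteins, the junction called without PMA fell from 69.0% to 38.3% and stood at 61.2% and 38.5% with PMA. Its junction called with PMA fell from 72.5% to 32.8% and had the other sign without PMA, at 51.9% and 69.0%.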

How the data were processed

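Polyadenylated RNA of 8 JSL1 libraries, 2 in each of 4 groups, was sequenced with a stranded kit, per the labels' protocols. STAR 2.5.1b and hg19 are named in the submitters' processing notes. The authors deposited 2 tables, 1 per state, with the column names that MAJIQ's viewer VOILA writes. Per the file headers, a line holds 1 LSV and lists per junction its expected share (PSI) in either group, a modelled change, and how probable it is, a posteriori, that this reaches 20 points. Version, annotation and filters of the quantification were not given in the sources used here. These values are model estimates over both libraries of a group, so per-library spread and depth are unknown and no test over libraries could be made. No multiple-testing adjustment enters these probabilities.

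Shares were turned into percent, and differences into percentage points, with Python 3.11.15, pandas 2.3.3 and numpy 2.4.6. An LSV was called at a probability of at least 0.95. PMA differences were taken between the tables at junctions of LSVs listed in both. Source and target follow the transcript: the LSV type letter was used, since the word in the LSV identifier follows the genome and was the opposite for all 89843 entries on the minus strand. Per gene the junction with the largest absolute difference was taken, and genes were compared within 8 classes of LSV number. Exons were matched to GENCODE 29 (GRCh38) by gene identifier and the lengths of exon and both introns, with no conversion of coordinates. Members were named where they had a called LSV, where 1 junction passed 20 points on PMA the same way in both kinds of cells, or where they were among the 10 largest in a contrast. The members and lists were chosen with earlier results of these data known. The selection steps were tested on simulated data. No member shared a junction with another gene name, as 528 genes did.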

Additional observations from a re-analysis of the deposited data

Results flagged for a closer look

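Opposite signs in 2 pairs of groups, with at least 10 points each way, were found 8 times, at 7 junctions. Only members were searched, so it is unknown how often other genes show the same, and the count is not a trait of the members. For each gene and contrast the junction with the largest change is given, and other junctions of the same LSVs can mirror it. The values are over both libraries of a group, so the signs of single libraries are unknown, and none of these differences between pairs of groups was tested.

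For the response to PMA there were 3. In CUL4A the junction to chr13:113883956 (hg19) differed by -13.7 points in control and 26.5 points in depleted cells, 40.2 points apart. In UBE2V1, an E2 variant, a junction between chr20:48713357 and chr20:48732022 differed by -10.8 and 12.8 points, 23.6 points apart. In CBLB a junction between chr3:105459475 and chr3:105463649 differed by 11.2 and -14.7 points, a change of -25.9 points between the 2.

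For depletion there were 5. The same CBLB junction differed by 13.1 points without PMA and -12.8 with PMA. Its change is the same -25.9 points by arithmetic, since the same group values enter both, and is no separate observation. In SKP2 the junction to chr5:36181920 differed by 16.6 and -11.0 points, a change of -27.6 points. In UBE3A a junction between chr15:25650649 and chr15:25654235 differed by -17.7 and 10.7 points, 28.4 points apart. In USP4, a deubiquitinase, a junction between chr3:49349087 and chr3:49362135 differed by -10.4 and 11.9 points, 22.3 points apart. In OTUD5 a retained intron differed by -10.3 and 12.3 points, 22.6 points apart.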

How the results depend on the processing

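No paired analysis was possible because the deposited tables hold 1 value per group over both libraries, and for the same reason no library could be left out in turn. The count of 5 members called on depletion without PMA stayed at 5 at a posterior of 0.90 (8.18% of all genes) and was 3 at 0.99 (3.85% of all genes), without LSVs that hold a de novo junction, with LSVs of 2 junctions and with source LSVs. It was 10 when called by the authors' expected change and 13 by the difference of shares, rules under which 13.7% and 15.6% of all genes passed. The count of 5 with PMA stayed at 5 at 0.90 (12.9% of all genes) and was 4 at 0.99 (6.99%), 7 by the expected change (19.9%), 9 by the difference of shares (21.6% of all genes), 3 without de novo LSVs, with source LSVs and without retained introns, and 2 with LSVs of 2 junctions. For PMA in control cells the count of 8 was 30 at 10 points (42.0% of all genes), 3 at 30 points (4.43%), 0 the same way in both kinds of cells, 4 without de novo LSVs and with source LSVs, and 2 with LSVs of 2 junctions. For PMA in depleted cells the count of 9 was 33 at 10 points (39.5% of all genes), 3 at 30 points (2.9%), 0 the same way in both, 3 without de novo LSVs, 1 with LSVs of 2 junctions and 4 with target LSVs. In the remaining alternatives the counts stayed near those reported, and fewer LSVs enter each restricted count.

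Of 60 combinations of a called member and a restriction on LSVs, 42 kept the call. KLHL42 and FAM188A kept it in all 6 restrictions each. FBXW7, HERC2 and CUL4A lost it without de novo LSVs.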
